A study of Mus musculus with 4 samples.

Results

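Satellite cells, the muscle stem cells that carry Pax7, lie beside capillaries, fibroblasts, nerve and tendon from which an isolation has to separate them. The 37 genes described here are markers of those neighbours, out of 55487 genes in the deposited tables: 14 of endothelium, 12 of fibro-adipogenic cells (the mesenchymal, fibroblast-like progenitors of muscle), 6 of mural cells (pericytes and vascular smooth muscle), 2 of Schwann cells and 3 of tenocytes. They were chosen by name as known cell type markers, and each name matched a single row of the table. RNA was measured in 2 Rbfox2 cKO and 2 Control libraries of satellite cells, labelled muscle stem cells, taken from mouse skeletal muscle and freshly isolated. In the cKO mice a floxed Rbfox2 was deleted by Pax7CreERT2 after tamoxifen, so the recombinase is restricted to Pax7-expressing cells, and a Rosa26 EYFP reporter labelled them. The sources used here do not give the age or sex of the mice, the number of animals behind a library, the way the cells were purified, or which of the Cre, reporter and tamoxifen the Control mice shared.

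Endothelial cells line blood and lymph vessels and are recognised by junction proteins and receptors for vascular growth factors. Mural cells wrap those vessels and share contractile proteins with smooth muscle. Fibro-adipogenic cells carry the receptor Pdgfra and make much of the collagen-rich matrix of muscle, Schwann cells ensheath its nerves, and tenocytes build its tendons. In bulk samples such as these, fewer cells of a type and less RNA per cell cannot be told apart. Nor can RNA from neighbouring cells be told apart from RNA of the same genes made by the satellite cells themselves. Which cells gave each level was not tested.

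Each library held between 68884091 and 101997422 estimated counts. Levels are given in TPM, the length-corrected share of a library's transcripts. Differences between the groups were tested on the counts and are given as log2 fold changes of cKO over Control. Rbfox2 stood at 40.04 and 15.17 CPM (counts scaled by library total and TMM factor) in cKO 1 and 2, against 131.3 and 55.98 CPM in Control 1 and 2, which is -1.76 on the log2 scale (SE 0.35, edgeR adjusted p = 2.518e-04). Its groups did not overlap, and 0 of the 4 fits that left out 1 library called it. Satellite cell markers were present in every library. Sdc4, a heparan sulphate proteoglycan of these cells, stood between 10958 and 12058 TPM. The 14 satellite cell markers summed to between 18293 and 19110 TPM, most of it from Sdc4, with 0 called between the groups. Without overlap in CPM, cKO was higher for 3 of the 14 (Pax7, Heyl and Fgfr4), against 18.0% of all genes tested. It was lower for 2 (Itga7 and Cd82), against 13.3% of all genes tested. Pax7 stood at 38.9 and 49.3 CPM in cKO 1 and 2, against 26.5 and 22.7 CPM in Control 1 and 2. Its log2 fold change was 0.84 (SE 0.33, edgeR adjusted p = 0.5565), and that of Heyl was 0.58 (SE 0.36). Immune cell markers summed to 66.3 to 96.5 TPM in cKO, against 49.8 to 60.7 TPM in Control, with 0 of 10 called, and their part in the results below was not tested. One library stands apart. In cKO 1 the median over 1739 olfactory and vomeronasal receptor genes, used as a gauge of low-level background, was 0.679 TPM, against 0.239 TPM in cKO 2 and 0.340 and 0.407 TPM in Control 1 and 2. Fold changes without it are given for some members below.

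Short stretches of sequence before the start of 3 endothelial markers and of Tnc are printed first, because these were the endothelial genes with the largest fold changes and the member with the smallest p-value below. The windows are the 250 bases upstream of a RefSeq gene start (build GRCm38.p6), read on the gene's strand, and capitals mark AGGAAG or its reverse complement CTTCCT, which hold the GGAA core bound by ETS transcription factors, a family known for its part in endothelial gene expression. The endothelial receptor genes Flt1 (chr5:147726012-147726261, minus strand) and Tie1 (chr4:118489850-118490099, minus strand), the water channel gene Aqp1 (chr6:55336049-55336298, plus strand) and the matrix gene Tnc (chr4:64047016-64047265, minus strand) read as follows.
Flt1: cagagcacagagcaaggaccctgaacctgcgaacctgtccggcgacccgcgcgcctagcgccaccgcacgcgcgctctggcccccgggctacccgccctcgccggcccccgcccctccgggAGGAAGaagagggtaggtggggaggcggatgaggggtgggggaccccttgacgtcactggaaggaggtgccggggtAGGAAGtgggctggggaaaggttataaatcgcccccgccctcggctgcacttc
Tie1: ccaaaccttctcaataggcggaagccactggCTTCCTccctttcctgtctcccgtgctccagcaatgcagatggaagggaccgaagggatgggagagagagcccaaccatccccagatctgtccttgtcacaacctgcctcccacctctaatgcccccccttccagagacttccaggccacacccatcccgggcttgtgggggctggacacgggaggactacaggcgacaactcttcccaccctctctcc
Aqp1: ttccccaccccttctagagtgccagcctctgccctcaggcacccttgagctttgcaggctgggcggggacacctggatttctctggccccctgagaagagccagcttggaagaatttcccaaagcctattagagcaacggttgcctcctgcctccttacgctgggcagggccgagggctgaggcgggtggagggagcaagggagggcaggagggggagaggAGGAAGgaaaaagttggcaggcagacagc
Tnc: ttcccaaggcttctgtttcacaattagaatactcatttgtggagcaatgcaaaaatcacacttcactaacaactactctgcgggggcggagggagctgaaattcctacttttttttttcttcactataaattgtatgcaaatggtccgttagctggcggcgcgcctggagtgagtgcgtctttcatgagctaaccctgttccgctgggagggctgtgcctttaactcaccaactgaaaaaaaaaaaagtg
Flt1 held 2 matches, starting 129 and 53 bases before the gene start, Tie1 held 1 match 219 bases before it and Aqp1 held 1 match 29 bases before it, while the Tnc window shown held none and a second, overlapping Tnc window held 1. Of the 37 markers 21 had a window in the table. A match lay upstream of 6 of 8 endothelial markers (Aqp1, Egfl7, Emcn, Eng, Flt1 and Tie1), of 3 of 7 fibro-adipogenic markers of 0 of 3 mural markers, of the 1 Schwann cell marker with a window (S100b) and of 1 of 2 tenocyte markers (Tnc), against 32.3% of all 27025 genes with a window. Some genes have several windows, and the motif was chosen after values were known, so these are descriptions of the letters alone.

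The markers spanned more than 3 orders of magnitude in level. The defining receptor Pdgfra of fibro-adipogenic cells and the endothelial cadherin Cdh5 averaged 1.94 and 4.99 TPM over the 4 libraries. Gsn, an actin-severing protein, averaged 999 TPM over the 4 libraries and Dpt, the matrix protein dermatopontin, averaged 287 TPM. Aqp1 (144.5 TPM), Dcn (140.5 TPM) and Fabp4 (139.1 TPM) followed, with ranges that overlapped one another. These 5 were the members at 100 TPM or more, 11 lay between 10 and 100 TPM, 19 between 1 and 10 TPM and 2, Clec3b and Scx, below 1 TPM. Along this order 3 of 36 neighbouring pairs had ranges that did not overlap, those below Gsn, Dpt and Fabp4. Against the satellite cell markers the 37 genes together came to 13.9% and 11.8% of the satellite cell sum in cKO 1 and 2, and to 9.95% and 11.5% of it in Control 1 and 2. Gsn alone made up between 44.0% and 47.1% of the summed TPM of all members, and Sdc4 between 58.6% and 63.6% of the satellite cell sum. The percentages are therefore not shares of cells.

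**Figure D1:**
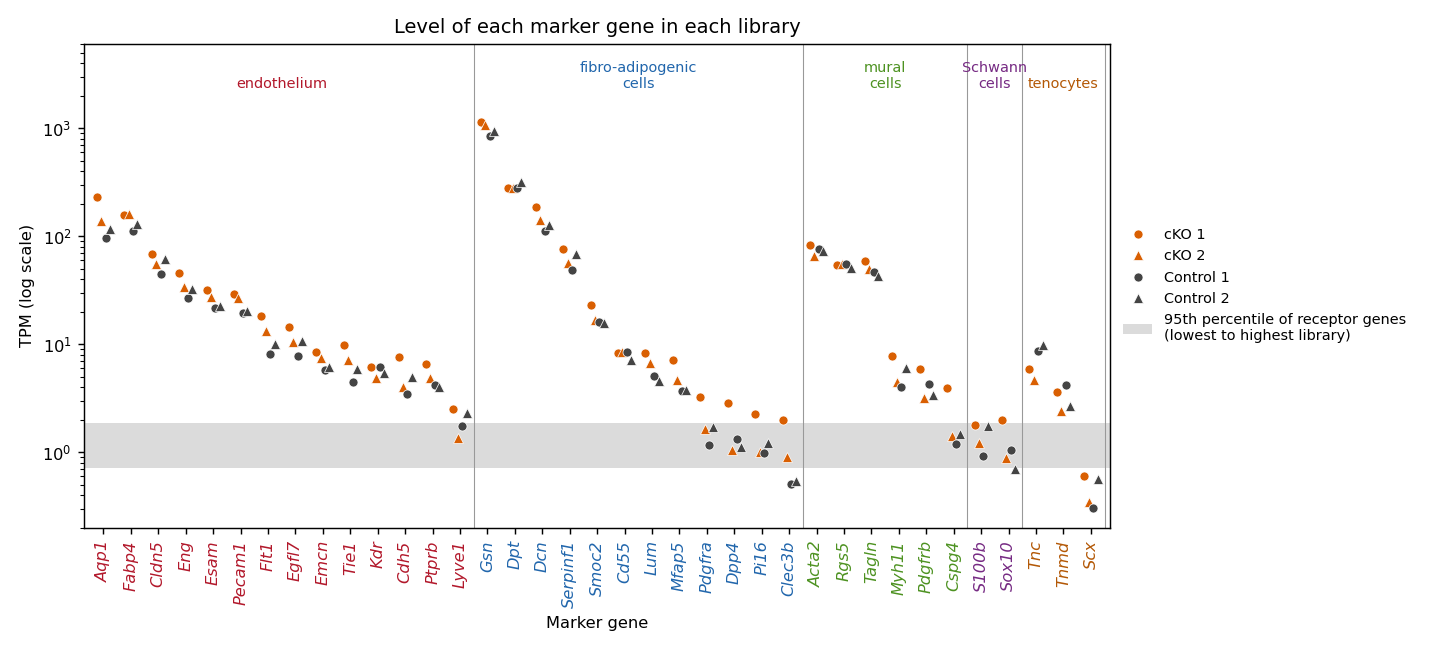
TPM (log scale) of the 37 marker genes in the 4 libraries, cKO in orange and Control in dark grey, ordered within each cell type by mean level; the grey band runs from the lowest to the highest library's 95th percentile of the 1739 receptor genes. Gsn stands at the top near 999 TPM, and Scx and the Control values of Clec3b lie below the band.

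The receptor genes give a measured floor for the low members. In each library a level was set against the 95th percentile of the receptor genes, which was 1.85 TPM in cKO 1 and 0.710 TPM in cKO 2, against 0.879 and 1.16 TPM in Control 1 and 2. By this measure 32 of the 37 markers lay above it in all 4 libraries. Scx, a transcription factor of tendon, lay above it in 0 libraries. Clec3b, which encodes the plasminogen-binding protein tetranectin, lay above it in both cKO libraries and in neither Control library. Dpp4 and Sox10 did not exceed it in Control 2, nor S100b in cKO 1.

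None of the 37 markers passed the threshold between cKO and Control. In edgeR's quasi-likelihood test 0 were called at an adjusted p of 0.05, where 0.551% of all 38143 genes tested were called (0.364% higher and 0.186% lower in cKO), and 1, Tnc, had an unadjusted p under 0.05, against 4.83% of all genes in either direction and 1.51% in its own, lower in cKO. DESeq2 called 0 members, against 0.252% of all genes, and 1 member had an unadjusted p under 0.05, against 3.10% of all genes. On TPM, limma called 0 of the 35 members with a mean of at least 1 TPM, against 0.308% of the 17210 genes tested, and 10 had an unadjusted p under 0.05, against 14.9%. The TPM-based fold change was above 0 for 29 of these 35, against 64.9% of the genes tested, and both cKO libraries lay above Control in TPM for 15, against 32.0%, and below it for 1, against 15.7%.

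The log2 fold change was above 0 for 28 of the 37 markers, against 55.0% of all genes tested, and their median was 0.21, against 0.06 over all genes. Among genes with a mean of at least 1 TPM it was above 0 for 26 of 35 markers, against 8397 of 16800 genes. In CPM, without overlap of the groups, cKO was the higher group for 16, against 18.0% of all genes, and the lower group for 3, against 13.3%. Among genes with a mean of at least 1 TPM cKO was the higher group for 15 of 35 markers, against 19.6%. The 16 were Pecam1, Flt1, Tie1, Emcn, Esam, Egfl7, Eng, Ptprb and Aqp1 of the endothelium, Pdgfra, Dcn, Lum, Mfap5, Smoc2 and Clec3b of the fibro-adipogenic cells, and Cspg4 of the mural cells. The 3 were Acta2, Tnmd and Tnc. Relative to the Control mean of log2 CPM, the members' median was 0.18 in cKO 1 and 0.27 in cKO 2, against 0.09 and -0.03 over all genes. Without cKO 1 the members' median log2 fold change was 0.29, against -0.06 over all genes, and without cKO 2 it was 0.11, against 0.15 over all genes, below that of all genes.

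**Figure D2:**
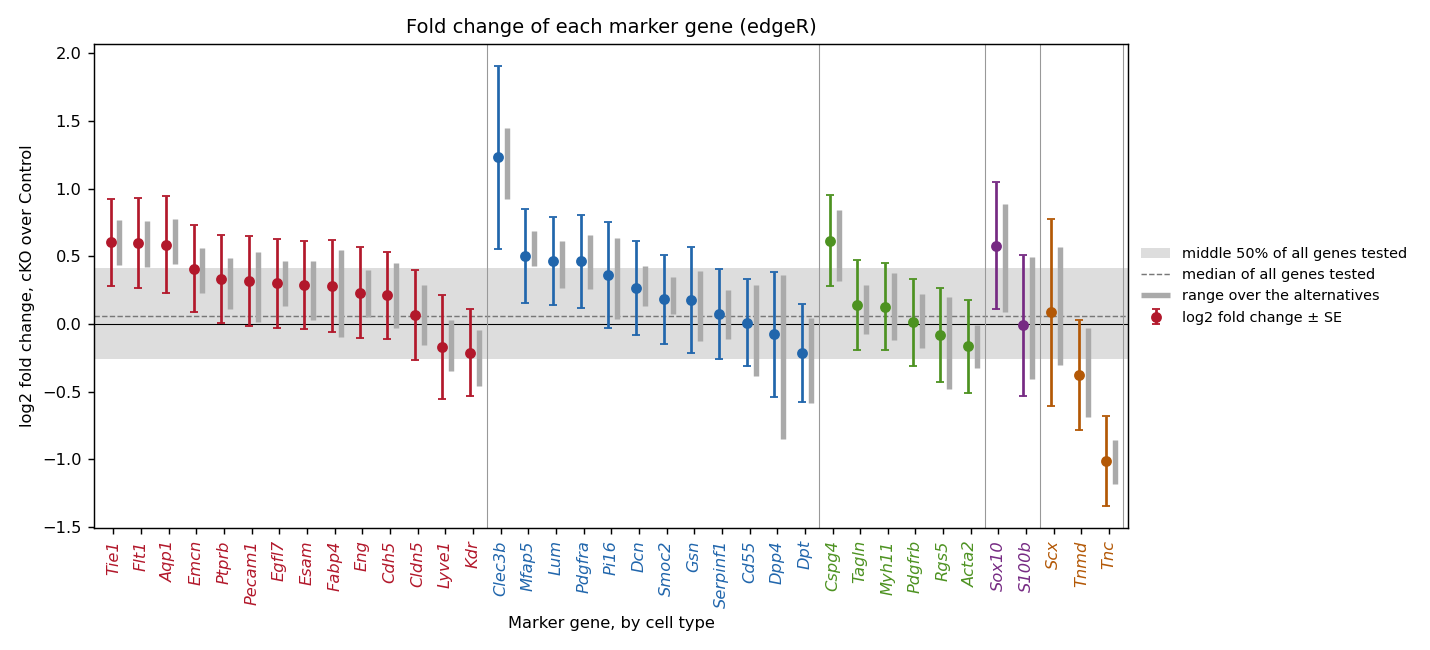
Log2 fold change of cKO over Control for each marker (points, ± SE, edgeR), with the median and middle 50% of all genes tested (dashed line and band). Grey bars give the range over the 10 alternatives (9 for Clec3b and Scx). These include the fits with 1 library left out as well as changes of processing. Tnc at -1.01 and Clec3b at 1.23 are the outermost points, and no point passed the threshold.

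Which cKO library was the higher one depended on the scale. In TPM, cKO 1 was the highest library for 30 of the 37 markers, against 51.3% of the 17210 genes with a mean of at least 1 TPM, and exceeded cKO 2 for 33. In CPM, whose TMM factor was 1.27 for cKO 1, against 0.875 for cKO 2 and 0.935 and 0.965 for Control 1 and 2, cKO 1 was the highest library for 11 markers and cKO 2 for 16. Relative to the Control mean of log2 CPM, 22 markers were positive in both cKO libraries, 4 were negative in both and 11 differed in sign. No share over all genes is given for these signs, for the 33 or for the highest library in CPM. Whether those counts differ from the share over all genes was not tested.

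**Figure D3:**
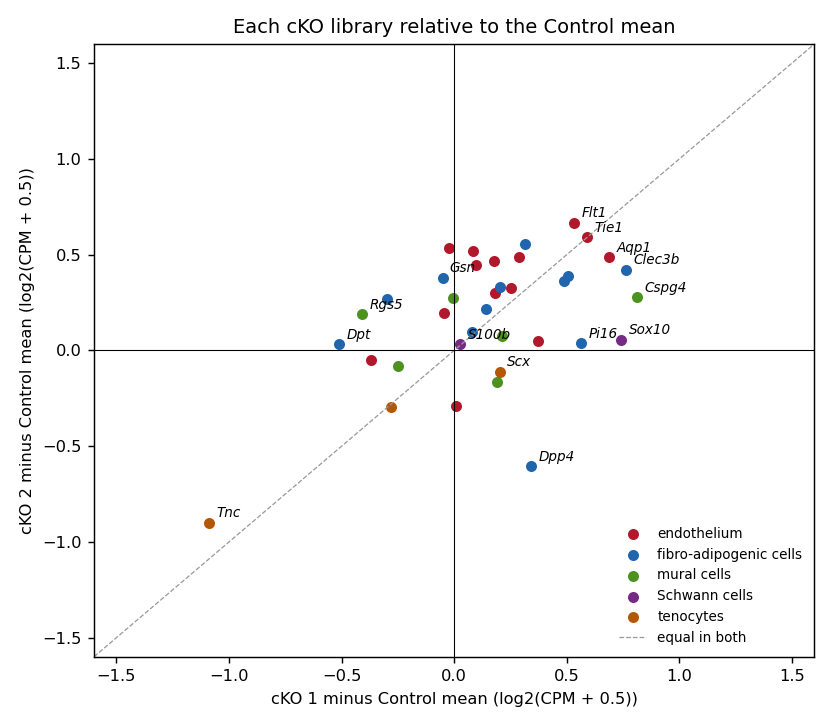
Each marker's log2(CPM + 0.5) in cKO 1 (x axis) and cKO 2 (y axis) minus the Control mean, coloured by cell type. The upper right holds 22 markers, and Tnc lies farthest to the lower left, near the dashed line of equal deviation. Both axes subtract the same Control mean.

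Endothelial markers had 0 of 14 members called, a median log2 fold change of 0.30, and 12 members above 0. Aqp1, the water channel of capillary endothelium and of red cells, stood at 229.2 and 136.6 TPM in cKO 1 and 2, against 95.9 and 116.4 TPM in Control 1 and 2. The groups did not overlap. Its log2 fold change was 0.59 (SE 0.36, adjusted p = 1.00). In edgeR it was 0.49 without cKO 1 and 0.62 without cKO 2. In limma on TPM it was 0.60 without Control 1 and 0.88 without Control 2. Of 4 erythroid markers edgeR called 3 higher in cKO (Hbb-bs, Hba-a1 and Alas2), DESeq2 called Alas2 alone (adjusted p = 0.0481, against 0.172 for Hbb-bs and 0.196 for Hba-a1) and limma called 0, with adjusted p between 0.162 and 0.230 for those 3. The sum of the 4 was 853 to 1073 TPM in cKO, against 215 to 441 TPM in Control, and none of the 4 was at 0. The part of red cells in the level of Aqp1 was not tested. Fabp4, a fatty acid carrier of capillaries and adipocytes, stood at 156.8 and 159.2 TPM in cKO 1 and 2, against 111.9 and 128.4 TPM in Control 1 and 2 (0.28, SE 0.34, adjusted p = 1.00). The groups did not overlap in TPM, but overlapped in CPM, and the fold change was 0.55 without cKO 1 and -0.10 without cKO 2. Cldn5, a tight junction protein, stood at 68.1 and 55.5 TPM in cKO 1 and 2, against 44.6 and 61.5 TPM in Control 1 and 2, overlapping (0.06, SE 0.33, adjusted p = 1.00), and its fold change was 0.19 without cKO 1 and -0.13 without cKO 2.

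Of the 3 receptors of vascular growth factors among the endothelial members, 2 had positive fold changes and 1 a negative one, and the difference between them was not tested. Flt1, the decoy-like receptor of VEGF, had 18.1 and 13.2 TPM in cKO 1 and 2, against 8.14 and 10.1 TPM in Control 1 and 2, and differed by 0.60 on the log2 scale (SE 0.33, adjusted p = 1.00). Tie1, an orphan receptor of the angiopoietin system, had 9.82 and 7.08 TPM in cKO 1 and 2, against 4.41 and 5.94 TPM in Control 1 and 2 (0.60, SE 0.32, adjusted p = 1.00). For both genes the groups did not overlap. Kdr, the main signalling receptor of VEGF, had 6.09 and 4.83 TPM in cKO 1 and 2, against 6.12 and 5.42 TPM in Control 1 and 2, and differed by -0.21 on the log2 scale (SE 0.32, adjusted p = 1.00). The Kdr groups overlapped, and its fold change lay between -0.45 and -0.04 over the 10 alternatives. These 3 receptors, Pdgfra and Cspg4 are given in full beyond the rule for named genes, after their values were seen.

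Junction and surface proteins had fold changes near or within their SE. Pecam1, the adhesion molecule also called CD31, averaged 28.0 ± 1.86 TPM in cKO and 19.9 ± 0.59 TPM in Control (SD, n = 2 each), with a log2 fold change of 0.32 (SE 0.33), which was 0.53 without cKO 1 and 0.02 without cKO 2. Cdh5, the endothelial cadherin, averaged 5.78 ± 2.53 TPM in cKO and 4.20 ± 1.01 TPM in Control (SD, n = 2 each), and its groups overlapped (0.21, and 0.04 without cKO 1). Esam, another junction molecule, had a fold change of 0.29, Emcn, an endothelial sialomucin, 0.41, Ptprb, a phosphatase that acts on junctions and Tie receptors, 0.33, Eng, a co-receptor for TGF beta ligands, 0.23, and Egfl7, a secreted protein of vessels, 0.30. Exons of Egfl7 overlap those of 4 other genes, and exons of Eng overlap Fpgs on the opposite strand. Lyve1, the hyaluronan receptor of lymphatic vessels, was the lowest endothelial member, at 2.51 and 1.36 TPM in cKO 1 and 2, against 1.75 and 2.28 TPM in Control 1 and 2.

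A further list of 21 endothelial genes had 0 called in edgeR and in DESeq2, 20 above 0 and a median of 0.29. Prox1, a transcription factor of lymphatic endothelium, and Cd36, a fatty acid transporter, were its most abundant genes. Prox1 stood at 48.6 and 54.0 TPM in cKO 1 and 2, against 41.5 and 36.9 TPM in Control 1 and 2. It averaged 45.2 TPM over the 4 libraries, against 1.97 TPM for the lymphatic marker Lyve1. Which cells gave the Prox1 level was not tested. Cd36 stood at 43.1 and 41.5 TPM in cKO 1 and 2, against 33.4 and 30.9 TPM in Control 1 and 2.

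**Figure D4:**
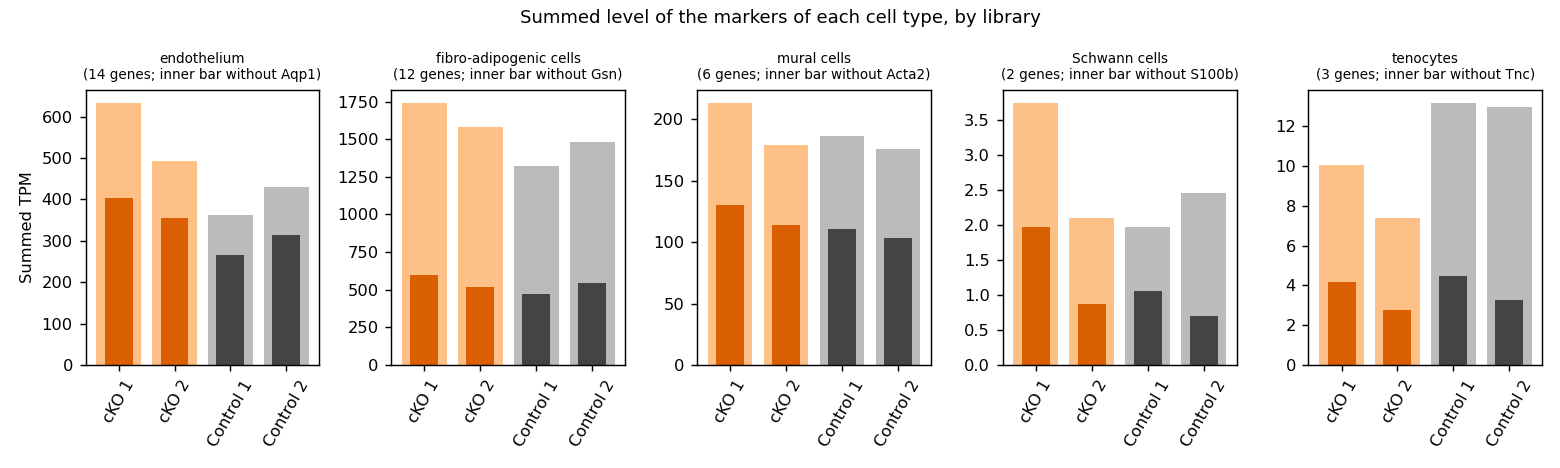
Summed TPM of the markers of each cell type in each library (wide pale bars), and the same sum without the most abundant gene of that cell type (narrow dark bars). The endothelial sum is 492 to 633 TPM in cKO, against 362 to 431 TPM in Control, and the tenocyte sum is 7.40 to 10.0 TPM in cKO, against 13.0 to 13.2 TPM in Control. Without Tnc the tenocyte sum is 2.77 to 4.18 TPM in cKO, against 3.24 to 4.46 TPM in Control, and the groups overlap.

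Fibro-adipogenic markers had 0 of 12 members called, a median of 0.22, and 10 members above 0. Gsn stood at 1145 and 1066 TPM in cKO 1 and 2, against 849 and 937 TPM in Control 1 and 2. The groups did not overlap in TPM but did in CPM, and the log2 fold change was 0.18 (SE 0.39, adjusted p = 1.00). It was 0.39 without cKO 1 and -0.12 without cKO 2, so its sign depended on a single library. Dpt stood at 279 TPM in both cKO libraries, against 277 and 315 TPM in Control 1 and 2 (-0.22, SE 0.36, adjusted p = 1.00). Without cKO 2 its fold change was -0.58, and without cKO 1 it was positive (0.04). Dcn, the collagen-binding proteoglycan decorin, stood at 184.3 and 139.5 TPM in cKO 1 and 2, against 111.8 and 126.3 TPM in Control 1 and 2. Its groups did not overlap (0.27, SE 0.35, adjusted p = 1.00). The 12 markers summed to 1742 and 1582 TPM in cKO 1 and 2, against 1324 and 1481 TPM in Control 1 and 2, and without Gsn to 596 and 516 TPM in cKO 1 and 2, against 475 and 545 TPM in Control 1 and 2. The sums overlapped only once Gsn was left out.

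The receptor that defines these cells was lower than Gsn, Dpt and Dcn by a wide margin, and closer to the matrix genes Mfap5 and Lum, which averaged 4.84 and 6.15 TPM over the 4 libraries. Pdgfra stood at 3.21 and 1.65 TPM in cKO 1 and 2, against 1.16 and 1.72 TPM in Control 1 and 2. The groups overlapped in TPM but not in CPM (0.46, SE 0.34, adjusted p = 1.00). The ratio of Dpt to Pdgfra in TPM was 86.8 and 169.0 in cKO 1 and 2, against 238 and 183 in Control 1 and 2, and that of Dcn to Pdgfra was 57.4 and 84.5 in cKO 1 and 2, against 96.1 and 73.3 in Control 1 and 2. So these ratios were not the same in every library, and both were lowest in cKO 1. The level of Pdgfra was not far above the 95th percentile of the receptor genes. That percentile was 1.85 and 0.710 TPM in cKO 1 and 2, against 0.879 and 1.16 TPM in Control 1 and 2. The part of this background in the ratios was not tested. Exons of Pdgfra overlap 3 other genes, on both strands.

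Clec3b had the highest fold change of all members. It rested on 76 and 52 estimated counts in cKO 1 and 2, against 24 and 26 in Control 1 and 2, or 1.99 and 0.905 TPM in cKO and 0.512 and 0.537 TPM in Control. The groups did not overlap. The log2 fold change was 1.23 (SE 0.68, adjusted p = 1.00), it was between 0.92 and 1.45 under the 9 alternatives that kept the gene, and 27.0% and 34.4% of the receptor genes reached its level in Control 1 and 2. Of the other markers of fibroblast reservoirs, Pi16, a secreted peptidase inhibitor, had 2.26 and 1.01 TPM in cKO 1 and 2, against 0.975 and 1.20 TPM in Control 1 and 2, overlapping, and its fold change of 0.37 was 0.04 without cKO 1. Dpp4, a surface dipeptidase, had 2.86 and 1.06 TPM in cKO 1 and 2, against 1.32 and 1.10 TPM in Control 1 and 2. Its groups overlapped, and its fold change of -0.08 was -0.85 without cKO 1 and 0.36 without cKO 2. Cd55, a complement regulator, stayed between 7.18 and 8.51 TPM in the 4 libraries. In CPM it stood at 9.01 and 13.6 in cKO 1 and 2, against 11.8 and 10.7 in Control 1 and 2. Its fold change of 0.01 lay between -0.38 and 0.29 over the 10 alternatives, with the opposite sign in 6. Of its 50-mers 9.12% also lie in transcripts of other genes, mainly Cd55b.

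The remaining matrix genes were Lum, the proteoglycan lumican (0.47), Mfap5, a microfibril protein (0.50), Smoc2, a calcium-binding matrix protein (0.18), and Serpinf1, a secreted serpin (0.08). Lum averaged 7.46 ± 1.06 TPM in cKO and 4.84 ± 0.34 TPM in Control, and Mfap5 5.94 ± 1.76 TPM in cKO and 3.75 ± 0.06 TPM in Control (SD, n = 2 each). Neither overlapped between the groups. Of a further list of 12 fibro-adipogenic genes 0 were called in edgeR and 8 were above 0, with a median of 0.06. DESeq2 called 1 of them, Mmp2, a gelatinase that cleaves matrix. It stood at 94.3 and 64.0 TPM in cKO 1 and 2, against 152.3 and 180.7 TPM in Control 1 and 2, without overlap. Its log2 fold change was -1.33 in DESeq2 (adjusted p = 0.0247), -1.26 in edgeR (adjusted p = 0.0763) and -1.08 in limma on TPM (adjusted p = 0.0802). The most abundant genes of the list were Lox, the collagen cross-linking enzyme, at 322 and 315 TPM in cKO 1 and 2, against 318 and 249 TPM in Control 1 and 2, and Col3a1, a fibrillar collagen, at 171.8 and 134.6 TPM in cKO 1 and 2, against 181.4 and 234.5 TPM in Control 1 and 2.

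Mural markers had 0 of 6 called, 4 above 0, and a median of 0.07, the nearest to 0 of the 5 cell types. Acta2, smooth muscle actin, stood at 83.2 and 64.7 TPM in cKO 1 and 2, against 75.2 and 72.8 TPM in Control 1 and 2. The groups overlapped in TPM, and in CPM both cKO libraries lay below both Control libraries (-0.16, SE 0.34, adjusted p = 1.00). Rgs5, a pericyte regulator of G protein signalling, stood at 53.5 and 55.3 TPM in cKO 1 and 2, against 55.1 and 50.3 TPM in Control 1 and 2. In TPM it had the narrowest range of all members, its highest library being 1.10 times its lowest. In CPM it stood at 95.6 and 144.9 in cKO 1 and 2, against 133.6 and 120.6 in Control 1 and 2. Its fold change of -0.08 (SE 0.35, adjusted p = 1.00) turned positive with library totals only and without cKO 1 (0.20), and was -0.48 without cKO 2. Tagln, an actin-binding protein of smooth muscle, stood at 59.4 and 49.7 TPM in cKO 1 and 2, against 46.3 and 42.3 TPM in Control 1 and 2, without overlap in TPM (0.14, SE 0.33, adjusted p = 1.00), and its fold change was 0.29 without cKO 1 and -0.07 without cKO 2. Of its 50-mers 58.3% also lie in transcripts of other genes, mainly Gm48529 on the opposite strand, so its counts are uncertain.

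The other mural markers were low. Cspg4, the NG2 proteoglycan of pericytes, had 3.89 and 1.41 TPM in cKO 1 and 2, against 1.19 and 1.47 TPM in Control 1 and 2, and its log2 fold change was 0.62 (SE 0.34, adjusted p = 1.00). The groups overlapped in TPM, and cKO 1 was the high library. Without cKO 1 the fold change was 0.32. Myh11, the smooth muscle myosin heavy chain, averaged 6.16 ± 2.35 TPM in cKO and 5.02 ± 1.42 TPM in Control, and Pdgfrb, the receptor that recruits mural cells to vessels, averaged 4.52 ± 1.95 TPM in cKO and 3.86 ± 0.63 TPM in Control (SD, n = 2 each). Both overlapped. A further list of 11 mural genes had 0 called in edgeR and in DESeq2, 5 above 0 and a median of -0.09, and its most abundant genes were Vtn, the adhesive protein vitronectin, at 88.7 and 85.5 TPM in cKO 1 and 2, against 97.9 and 105.8 TPM in Control 1 and 2, and Mcam, an adhesion molecule of pericytes, at 5.46 and 6.73 TPM in cKO 1 and 2, against 5.67 and 5.37 TPM in Control 1 and 2.

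The Schwann cell markers were near the receptor floor and neither was called. Sox10, the transcription factor of neural crest glia, stood at 1.97 and 0.873 TPM in cKO 1 and 2, against 1.06 and 0.698 TPM in Control 1 and 2. Its groups overlapped, with cKO 1 high (0.58, SE 0.47, adjusted p = 1.00), and without cKO 1 the log2 fold change was 0.09. S100b, a calcium-binding protein of glia, stood at 1.78 and 1.23 TPM in cKO 1 and 2, against 0.922 and 1.76 TPM in Control 1 and 2, overlapping (-0.01, SE 0.52, adjusted p = 1.00). Of a further list of 12 Schwann cell genes 0 were called in edgeR and in DESeq2 and 8 were above 0, with a median of 0.14. Pmp22, a myelin protein that many other cells also make, stood at 97.0 and 101.7 TPM in cKO 1 and 2, against 68.5 and 64.4 TPM in Control 1 and 2, and Mbp, the myelin basic protein gene, averaged 15.4 ± 0.65 TPM in cKO and 10.7 ± 0.56 TPM in Control (SD, n = 2 each). Neither overlapped between the groups.

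Tnc had the lowest fold change of the members, and the 3 tenocyte markers had a median of -0.38 with 1 above 0. It encodes tenascin C, a matrix glycoprotein of tendon that is also made in regenerating muscle (chromosome 4, 63959785 to 64047015, minus strand). Tnc stood at 17.5 and 20.1 CPM in cKO 1 and 2, against 36.3 and 39.5 CPM in Control 1 and 2. In TPM it had 5.87 and 4.64 in cKO 1 and 2, against 8.71 and 9.73 in Control 1 and 2. On both scales cKO was the lower group without overlap, and the gap was wider than the spread within either group. The log2 fold change was -1.01 (SE 0.33, adjusted p = 0.217), and in limma on TPM it was -0.71 (adjusted p = 0.186). It was negative in all 10 alternatives, between -1.18 and -0.86. Of the alternatives that kept all libraries, only edgeR with library totals alone called it (adjusted p = 0.0353). Its fold change was -0.91 without cKO 1 and -1.18 without cKO 2. In fits with a single cKO library, those for Aqp1 and Dpt above included, its spread was assumed to be that of the Control libraries. Exons of Tnc overlap 8030451A03Rik on the opposite strand, which shares 1.04% of its 50-mers.

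The other tenocyte markers were Tnmd and Scx. Tnmd, the tendon membrane protein tenomodulin, stood at 3.58 and 2.42 TPM in cKO 1 and 2, against 4.16 and 2.69 TPM in Control 1 and 2, overlapping in TPM (-0.38, SE 0.40, adjusted p = 1.00). Scx rested on 47 and 30 estimated counts in cKO 1 and 2, against 23 and 44 in Control 1 and 2, at 0.602 and 0.349 TPM in cKO and 0.305 and 0.558 TPM in Control (0.09, SE 0.69, adjusted p = 1.00). Its groups overlapped, and between 27.9% and 57.0% of the receptor genes reached its level, depending on the library. A further list of 10 tenocyte genes had 0 called in edgeR and in DESeq2, 9 above 0 and a median of 0.21. Fmod, the tendon proteoglycan fibromodulin, stood at 35.6 and 20.4 TPM in cKO 1 and 2, against 15.8 and 19.7 TPM in Control 1 and 2, and Thbs4, a thrombospondin of tendon, at 23.6 and 14.9 TPM in cKO 1 and 2, against 13.3 and 12.1 TPM in Control 1 and 2. Whether Tnc differed from the other tenocyte genes in its response was not tested.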

How the data were processed

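Extraction used a column kit for small samples, cDNA followed the SMART-Seq protocol and libraries used an MGI kit, per the labels' protocols. GRCm38, StringTie 1.3.6 and HISAT2 2.1.0 are listed, with no role, per the submitters' processing notes. The annotation, the strand setting and any filter were not stated in the sources used here. The deposited estimated counts are whole numbers, so none was rounded. The deposited TPM sum to the same total in each library and keep no depth.

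The tests on counts used edgeR 4.0.16 under R 4.3.3 (TMM, filterByExpr, robust quasi-likelihood test, Benjamini-Hochberg over all genes tested, threshold 0.05). The SE is the fold change over the square root of F. TPM were compared with limma 3.58.1 on log2(TPM + 1), which understates changes of low genes, where the mean reached 1 TPM. Alternatives were DESeq2 1.42.0, other factors and filters, a replicate block, other pseudocounts and each library left out. The fits were tested on simulated data. The genes given a change there were drawn above a CPM floor, so low members such as Clec3b and Scx were not covered. Nothing states that replicates are separate animals, and p-values then cover only the spread among these libraries, which may be technical. Coordinates, exon overlaps and shared 50-mers are from GENCODE M21 (GRCm38), matched for 55394 of 55487 gene IDs, and promoter windows from RefSeq.

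Members, lists and rules were chosen with earlier results of these data known. All members are named. Full values are given for called members, for the 3 most abundant of each cell type, and for members without overlap and an absolute log2 fold change of at least 1. Of the further lists, called genes and the 2 most abundant are named, none being called in edgeR; Mmp2, called in DESeq2, was added after its values were seen.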

Additional observations from a re-analysis of the deposited data

How the results depend on the processing

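The members called in edgeR numbered 0 in the reported fit and 1 with library totals only (Tnc), and 0 to 3 when 1 library was left out. Of the 37 members 34 were called in none of the 10 alternatives and 22 kept their sign in all. Library totals only moved the median of all genes to 0.25, against 0.06 with TMM. A change of scaling turned the sign for 6 members (Lyve1, Cd55, Dpp4, Pdgfrb, Rgs5 and S100b). The median log2 fold change of the members, 0.21, was 0.13 with DESeq2 size factors and in DESeq2, 0.39 with library totals only, 0.32 where 2 libraries had to reach a CPM of 1, and 0.11 to 0.31 with 1 library left out. Genes called in edgeR over the whole table numbered 210, against 119 with DESeq2 size factors, 96 in DESeq2, 28 without a count filter, 60 where 2 libraries had to reach a CPM of 1 and 51 to 2267 with 1 library left out. In limma on TPM they numbered 53, against 102 with a pseudocount of 0.1, 24 with a pseudocount of 5, 404 with no filter and 18 to 608 with 1 library left out, where 0 to 1 members (Aqp1) were called. The cause of these differences was not tested.

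With the replicate number as a block, 96 genes and 0 members were called in edgeR and 68 genes and 0 members in limma. The labels do not say that the numbers pair the samples. The codes of same-numbered libraries share a part whose meaning is not stated. Same-numbered libraries deviated with a correlation of -0.20 over 10579 genes. The crossed pairing, added after seeing the data, called 243 genes and 0 members. With 2 libraries a group the common biological coefficient of variation was 0.373, and Clec3b and Scx, at 23 to 76 counts a library, carry counting error besides.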
